A study of Mus musculus with 2 samples.

Results

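Conventional CD4 T cells were examined among the single cells of colitis-associated colon tumors (CACs) of mice. They were selected on 5 measured genes: a cell that the authors annotated as a T cell was a member when it held at least 1 unique molecular identifier (UMI, one counted RNA molecule) of Cd4 and none of Foxp3, Trdc, Cd8a or Cd8b1. The rule kept 1330 of 5737 T cells, out of 38883 cells in all. Of these, 590 came from the library labelled Mir34a_F/F and 740 from the library labelled Mir34a_Mye_KO.

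Conventional CD4 T cells are the helper branch of the T-cell family. They read peptides on MHC class II through the T-cell receptor with Cd4 as co-receptor, and they act on other cells through membrane ligands such as CD40 ligand and through secreted cytokines. Helper cells are grouped by what they secrete: type 1 cells make interferon gamma, type 2 cells IL-4, IL-5 and IL-13, type 17 cells the interleukin-17 cytokines and interleukin-22, and follicular helper cells interleukin-21. In the colon, type 17 cells are known for acting on the epithelium and for calling in neutrophils. Regulatory T cells carry Foxp3, gamma-delta T cells Trdc, and CD8 T cells Cd8a and Cd8b1. The rule kept out cells with a UMI of any of these genes. A cell of these kinds in which no such UMI was found could remain in the group.

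The tumors came from mice that were 6 to 10 weeks of age at the start, received azoxymethane at 10 mg/kg before the first 2 of 3 rounds of dextran sodium sulfate in the drinking water (2.5% in the first rounds, 2% in the last) and were killed on day 110. Mice of both groups carried floxed Mir34a, the gene of the microRNA miR-34a. In the group labelled Mir34a_Mye_KO it was deleted by Cre recombinase under the control of the LysM gene, which is active in macrophages, monocytes and neutrophils, so T cells are not the cells in which that Cre is known to act. Each genotype was represented by 1 library, made from 6 to 8 tumors of 3 pooled mice. Differences between the libraries therefore have no replicate check, they cannot be told apart from differences between pools of mice or library preparations, and no test between genotypes was possible.

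The libraries differed in depth. Conventional CD4 cells had a median of 4265.5 UMIs in the Mir34a_F/F library and of 9107 in the Mir34a_Mye_KO library, and the other T cells 3380 and 7523. Counts of cells with a UMI of a gene move with that depth. Many such shares are therefore also given after every cell was thinned at random to 1000 UMIs. Thinning left out 3 and 1 conventional CD4 cells with fewer. Shares not marked as thinned are at full depth. A gene's level here is its UMIs per 10000 of a cell's own total, averaged over the cells of a group. Of all cell barcodes, 96 occurred in both libraries, among them 3 of the conventional CD4 cells of the Mir34a_F/F library and 4 of those of the Mir34a_Mye_KO library. The median mitochondrial share was 1.62% and 3.00% in the conventional CD4 cells. Although the stated filter of the study was 25%, 8 and 22 of them were at or above it.

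Among the T cells, conventional CD4 cells made up 19.1% in the Mir34a_F/F library (exact binomial 95% interval 17.7 to 20.5) and 27.9% in the Mir34a_Mye_KO library (26.2 to 29.7). Membership needed 1 Cd4 UMI, and the share with one moved with depth. When the same rule was applied after thinning to 1000 UMIs, 7.52% and 7.99% of T cells passed, within 1 percentage point of each other. Thinning also removed UMIs of Foxp3, Trdc, Cd8a and Cd8b1, so T cells left out at full depth could pass. In the other T cells a Foxp3 UMI was found in 18.6% and 31.3% at full depth and in 7.94% and 9.77% after thinning. Of the members, 376 in the Mir34a_F/F library (63.7%) and 300 in the Mir34a_Mye_KO library (40.5%) stood on a single Cd4 UMI. Shares, levels and ratios carry intervals that cover counting error only.

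Cells just inside and just outside the threshold are given here once, as a description. T cells with none of the 5 genes numbered 1631 and 927 and were shallower, with median depths of 2878 and 5762 UMIs. In the Mir34a_F/F library the level of Cd40lg, which encodes CD40 ligand, was 1.65 in members with 2 or more Cd4 UMIs, 0.948 in members with 1, and 0.561 in T cells with none of the 5 genes. In the Mir34a_Mye_KO library it was 1.65, 1.42 and 0.551 in the same order. A further 84 and 108 T cells had Cd4 but were left out by 1 UMI alone of Foxp3, Trdc, Cd8a or Cd8b1. Their Ikzf2 levels were 18.1 and 19.9, against 5.13 and 9.86 in members with 1 Cd4 UMI. Ikzf2 encodes Helios, a transcription factor frequent in regulatory T cells.

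The label was checked on receptor genes and on CD40 ligand. At least 1 UMI of Cd3d, Cd3e or Cd3g, the invariant chains of the receptor, was found in 93.2% of conventional CD4 cells of the Mir34a_F/F library and in 94.2% of those of the Mir34a_Mye_KO library. In the other T cells the shares were 71.6% and 73.4%. These shares are at full depth, and the members were deeper than the other T cells. After thinning, a Cd3e UMI was found in 39.0% and 28.4% of members and in 27.2% and 20.7% of the other T cells. In all, 40 and 43 members had no Cd3 UMI. A UMI of Cd40lg was found in 29.8% and 50% of members and, after thinning, in 8.86% and 13.9%. B cells gave 0.107% and 0.325% after thinning. A UMI of a T-cell receptor beta variable gene was seen in 18.1% and 23.0% of members, against 8.89% and 13.2% of the other T cells and 0.742% and 0.864% of B cells. Alpha variable genes set the members less apart. One had a UMI in 7.97% (5.91 to 10.5) and 13.9% (11.5 to 16.6) of members. The other T cells were at 6.73% (5.77 to 7.78) and 9.90% (8.60 to 11.3), all at full depth.

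Transcripts of other cell types were present in nearly every member. Igkc, an immunoglobulin light chain made by B and plasma cells, had a UMI in 98.1% of members of the Mir34a_F/F library and in 100% of those of the Mir34a_Mye_KO library. Krt8, an epithelial keratin, had one in 95.1% and 94.2%. None of the epithelial, plasma and B-cell, macrophage and dendritic-cell, neutrophil or mast-cell markers that could be counted was 1.5-fold higher or lower in members than in other T cells in both libraries. The Cd4 gene itself had a UMI in 4.45% and 9.83% of B cells and in 7.16% and 13.3% of macrophages. The B cells had median depths of 3664 and 20852 UMIs, and after thinning 0.430% and 0.542% of them had a Cd4 UMI. The part of such transcripts in the membership of single cells was not tested.

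Which genes set conventional CD4 cells apart from the other T cells of the same tumors was described by the ratio of mean levels in each library. A gene was counted when it had a level of at least 0.2 in either group and at least 50 UMIs over both groups in each library, and it was called higher or lower when it differed 1.5-fold the same way in both libraries. Since the members were chosen by 5 of their genes, these calls are a description and carry no test. Of 6380 genes counted, 68 (1.07%) were higher in conventional CD4 cells and 137 (2.15%) were lower. In at least 1 library, 19 of the former and 51 of the latter were under 0.2 in the group in which they were lower. Such genes were counted through the other group alone, so their direction was set by the minimum level. Of the genes past the fold 33.2% were thus higher. With every cell thinned to 1000 UMIs, 59 of 6280 counted genes were higher and 208 lower, so 22.1% of those past the fold were higher. Without thinning, the median log2 ratio over the 6380 genes was -0.07 in the Mir34a_F/F library and -0.04 in the Mir34a_Mye_KO library.

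Several ligands of T-cell help were higher in conventional CD4 cells. Of 12 counted genes of help ligands and costimulatory receptors, 5 were higher (Cd40lg, Tnfsf8, Tnfsf11, Slamf1 and Slamf6) and 1, Cd27, was lower. The list's median log2 ratio was 0.61 in the Mir34a_F/F library and 0.37 in the Mir34a_Mye_KO library. Cd40lg, which licenses B cells and dendritic cells, had 352 UMIs in the members of the Mir34a_F/F library (exact Poisson 95% interval 316 to 391) and 1171 in those of the Mir34a_Mye_KO library (1105 to 1240.0). Its level was 1.20 against 0.429 in the other T cells of the first library, a log2 ratio with its 95% counting interval of 1.49 (1.26 to 1.72). In the second library it was 1.56 against 0.385, a log2 ratio of 2.02 (1.86 to 2.17). Foxp3-positive, Trdc-positive and CD8 T cells had Cd40lg levels of 0.184, 0.197 and 0.152 in the first library and of 0.258, 0.209 and 0.152 in the second, all below the members.

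Tnfsf8 (CD30 ligand) and Tnfsf11 (RANK ligand), both membrane ligands of the tumor necrosis factor family, were also higher in conventional CD4 cells. The Tnfsf8 level was 5.34 against 2.05 in the Mir34a_F/F library, a log2 ratio of 1.38 (1.27 to 1.49), and 8.51 against 2.11 in the Mir34a_Mye_KO library, a log2 ratio of 2.01 (1.94 to 2.08). The Tnfsf11 level was 2.58 against 0.984 and 3.77 against 1.26, with log2 ratios of 1.39 (1.24 to 1.54) and 1.58 (1.49 to 1.67). Cd27, a costimulatory receptor, was at 0.266 against 0.419 and at 0.285 against 0.549. Its log2 ratios were under 1.5-fold in the Mir34a_F/F library after thinning (-0.24), with the stricter filter on cells (-0.55) and with a pseudocount of 0.1 (-0.50), and Slamf6 was under it after thinning (0.50) and with the pseudocount (0.58). A UMI of Icos, the inducible costimulator, was found in 82.2% and 93.1% of members. After thinning the shares were 49.2% and 56.8%, against 1.29% and 1.19% of B cells. The Icos ratios over other T cells, 0.56 and 0.46 on the log2 scale, stayed under 1.5-fold.

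**Figure D1:**
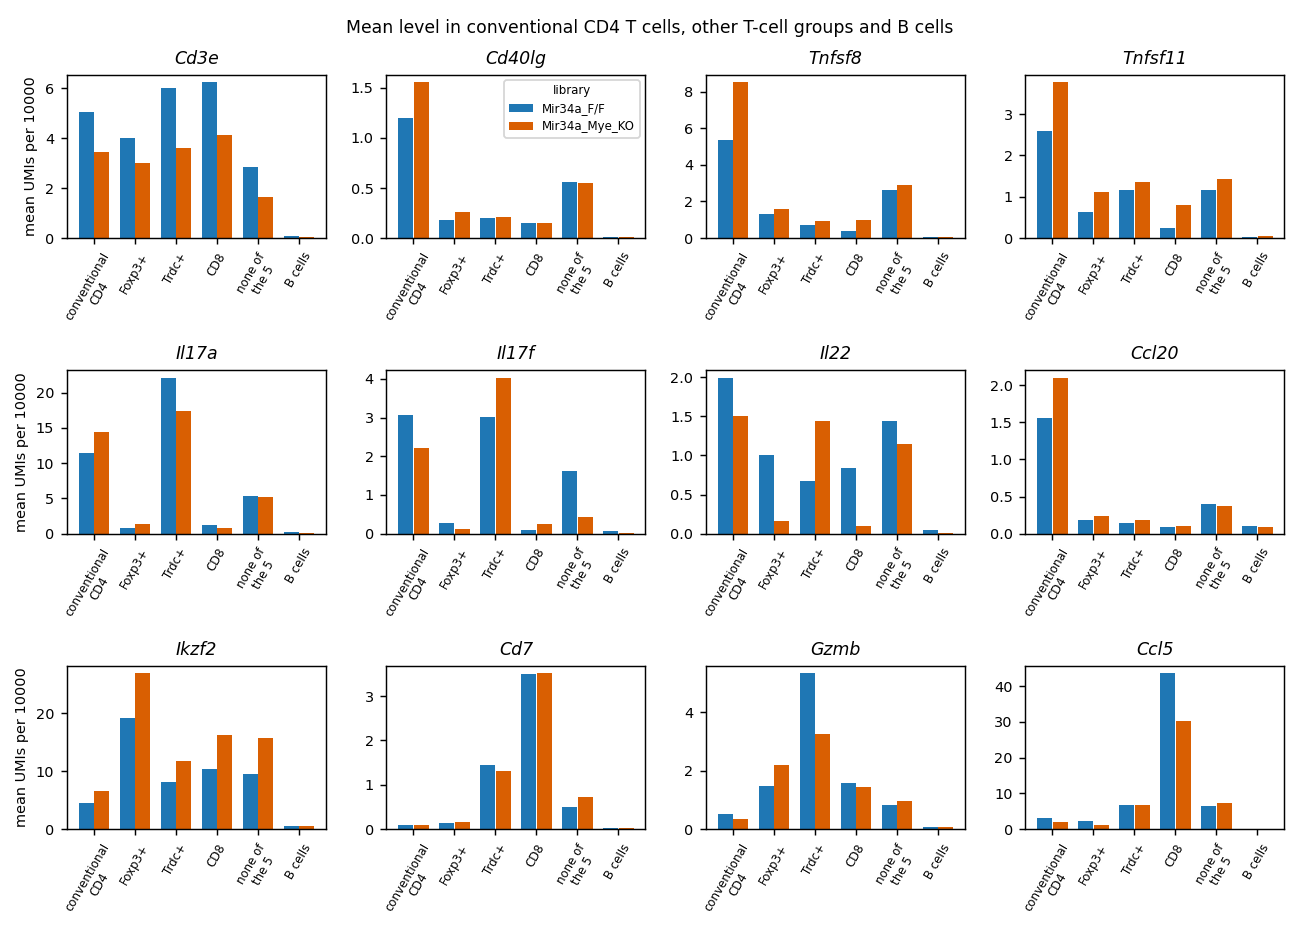
Mean level (UMIs per 10000 of the cell's total, linear axes from 0) of 12 genes in conventional CD4 T cells, Foxp3-positive, Trdc-positive and CD8 T cells, T cells with none of the 5 selection genes, and B cells, with 1 bar for each of the 2 libraries. Cd40lg is highest in conventional CD4 cells, at 1.20 and 1.56, whereas Il17a is higher in Trdc-positive cells, at 22.1 and 17.4, than in conventional CD4 cells, at 11.4 and 14.4.

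Type 17 genes formed the largest group of higher genes among the lists. All 14 genes of the type 17 list were counted, 6 were higher in conventional CD4 cells (Il17a, Il17f, Il22, Tmem176a, Tmem176b and Furin) and none was lower. The list's median log2 ratio was 0.58 in the Mir34a_F/F library and 0.60 in the Mir34a_Mye_KO library. Il17a, the cytokine that names the group, was at 11.4 against 5.45 in the Mir34a_F/F library, a log2 ratio of 1.06 (0.99 to 1.12). In the Mir34a_Mye_KO library it was at 14.4 against 4.74, a log2 ratio of 1.60 (1.56 to 1.65). Trdc-positive cells stood above conventional CD4 cells, at 22.1 and 17.4. The level was 0.740 and 1.36 in Foxp3-positive cells and 1.28 and 0.758 in CD8 cells. A UMI of Il17a was found in 43.2% and 45.0% of members and, after thinning, in 29.1% and 28.3%, against 1.61% and 1.19% of B cells.

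Il17f, another interleukin-17 gene, was at 3.07 against 1.35 and at 2.21 against 0.661, log2 ratios of 1.18 (1.05 to 1.31) and 1.74 (1.61 to 1.87). Il22, whose product acts on epithelial cells, had log2 ratios of 0.68 (0.53 to 0.82) and 1.0 (0.89 to 1.11), but only 0.24 and 0.60 when UMIs were summed over cells instead of averaged. Tmem176a, a membrane protein often found with the type 17 programme, was at 2.16 against 1.13 and at 2.22 against 1.14, and B cells were at 1.11 and 2.22. Rora, a transcription factor gene of the programme, was at 11.8 against 11.5 and at 15.7 against 15.8. Furin was under 1.5-fold in the Mir34a_F/F library after thinning, at 0.51. Il23r, the interleukin-23 receptor chain, had log2 ratios of 0.56 and 0.59.

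The gene ranked first among those higher in conventional CD4 cells was Ccl20, a chemokine that attracts cells bearing Ccr6. Its level was 1.57 against 0.311 in the Mir34a_F/F library, a log2 ratio of 2.33 (2.10 to 2.57), and 2.10 against 0.280 in the Mir34a_Mye_KO library, a log2 ratio of 2.91 (2.74 to 3.08). Members with a UMI of Ccl20 made up 12.0% and 17.2%, and the 59 and 74 members with the most Ccl20 UMIs held 97.8% and 95.8% of them. The other genes named by rank in this direction, beside Cd40lg, Tnfsf8, Tnfsf11 and Il17f, were Ermn, Cpe, Gldc, Igfbp7 and Tnc. Ermn was at 0.812 against 0.232 and at 0.809 against 0.258. Cpe encodes a carboxypeptidase, with log2 ratios of 1.59 and 1.53, and Gldc the glycine decarboxylase of mitochondria, with 1.35 and 1.28. Igfbp7, which encodes an insulin-like growth factor binding protein, had 1.97 and 1.15, and Tnc, which encodes the matrix protein tenascin-C, had 1.13 and 1.94.

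**Figure D2:**
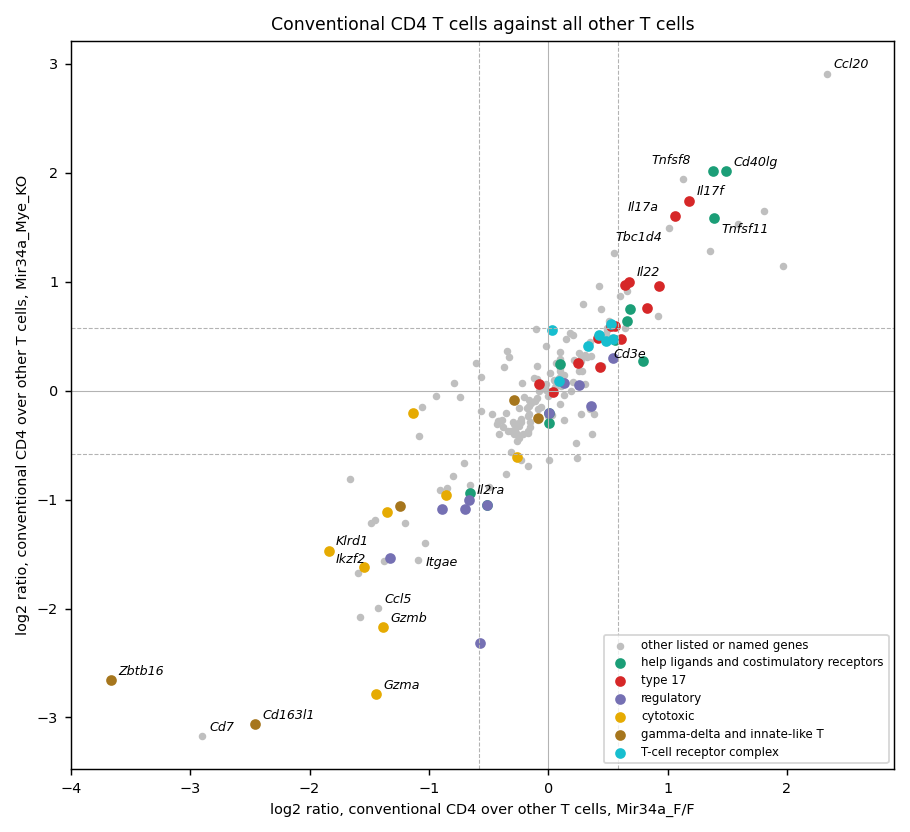
log2 ratio of the mean level in conventional CD4 T cells over all other T cells, in the Mir34a_F/F library (horizontal) against the Mir34a_Mye_KO library (vertical), 1 point for each counted gene of the fixed lists or named by rank, with dashed lines at 1.5-fold. The 5 help genes and 6 type 17 genes called higher lie to the upper right, other type 17 genes such as Rora (0.04 and -0.01) near the centre, with Ccl20 farthest at 2.33 and 2.91, and most cytotoxic, regulatory and innate-like genes to the lower left.

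Most counted cytotoxic genes were lower in conventional CD4 cells. Of 8 counted, 6 were lower (Gzma, Gzmb, Nkg7, Klrd1, Klrk1 and Ccl4) and none was higher, with list medians of -1.37 and -1.29 on the log2 scale. The rule had removed T cells with a Cd8a or Cd8b1 UMI from the members and left them in the comparison group. Klrk1 was counted through the other T cells alone. Gzmb, which encodes the protease granzyme B, was at 0.519 against 1.36 in the Mir34a_F/F library and at 0.358 against 1.61 in the Mir34a_Mye_KO library, log2 ratios of -1.39 and -2.17. Gzma was at 0.585 against 1.59 and at 0.284 against 1.96. It was found in 18 and 24 members, and a single member held 221 of 285 Gzma UMIs in the first library and 248 of 388 in the second. The chemokine Ccl5, made by killer cells, was at 3.24 against 8.73 and at 1.93 against 7.71, and CD8 T cells stood at 43.6 and 30.3. The genes lowest by rank were Cd7, Irf8, Klrd1, Ccl5, Gzmb, Frmd5, Ikzf2, Cables1, Tmtc2 and Ctsw. Cd7, a surface receptor of T and natural killer cells, was at 0.10 against 0.747 and at 0.10 against 0.902, log2 ratios of -2.90 and -3.17. It was under the minimum level in the members of both libraries and counted through the other T cells alone, so lower was the one call open to it.

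Some regulatory genes other than Foxp3 were also lower. Of 11 counted, 4 were lower (Il2ra, Ikzf2, Ikzf4 and Il10) and none was higher, with list medians of -0.51 and -1.0. In the Mir34a_F/F library 3 of these were under 1.5-fold under an alternative, Il2ra with summed UMIs (-0.57) and after thinning (-0.55), Ikzf4 after thinning (-0.34) and Il10 with summed UMIs and with the pseudocount (-0.50 in both). Because cells with a Foxp3 UMI were excluded by the rule, this direction was favoured by the selection, and Il10 was counted through the other T cells alone. Ikzf2 was at 4.50 against 11.3 in the Mir34a_F/F library and at 6.51 against 18.9 in the Mir34a_Mye_KO library. It was still found in 37.8% and 58.8% of members, and in 18.7% and 22.6% after thinning, against 3.87% and 4.77% of B cells. Il2ra, the high-affinity interleukin-2 receptor chain, was at 1.89 against 2.99 and at 2.46 against 4.93. Ctla4, an inhibitory receptor, did not share this order, with levels of 10.1 against 6.93 and of 9.89 against 8.05.

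Of the 11 genes of the gamma-delta and innate-like list 5 were counted, and 3 of these were lower, namely Cd163l1 (Scart1, a marker of gamma-delta cells), Zbtb16 (PLZF, the transcription factor of innate-like T cells) and Fcer1g. Cd163l1 and Zbtb16 were counted through the other T cells alone, and cells with a Trdc UMI had been removed from the members by the rule, so the direction of these calls was set by the choice of members and genes. Zbtb16 had 16 UMIs in the 590 members of the Mir34a_F/F library and was at 0.0442 against 0.561. In the Mir34a_Mye_KO library it was at 0.195 against 1.23. Cd163l1 was at 0.0550 against 0.302 and at 0.0359 against 0.299, and Trdc-positive cells were at 2.49 and 2.56. Of 6 counted innate lymphoid genes, Il1rl1 and Klrb1b were lower and none was higher, Klrb1b again counted through the other T cells alone.

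The remaining helper programmes gave few calls. Of 9 counted type 1 genes, Tbx21, Il12rb2 and Ccl5 were lower. Tbx21 was at 0.116 against 0.217 and at 0.181 against 0.342, under the minimum level in the members of both libraries, so that lower was the one call open to it. Its log2 ratio in the Mir34a_F/F library was -0.13 after thinning and -0.55 with a pseudocount of 0.1. Against the T cells with UMIs of Foxp3, Trdc or Cd8 genes alone, Il12rb2 was at -0.50 in the Mir34a_Mye_KO library, under 1.5-fold. Ifng, the type 1 cytokine, was at 0.410 against 0.340 and at 0.458 against 0.530, log2 ratios of 0.27 and -0.21. Of 5 type 2 genes, the homing receptor gene Ccr4 was higher and Il1rl1 and Il10 were lower. The type 2 cytokine genes Il4, Il5 and Il13 had 7, 1 and 6 UMIs over all members of the Mir34a_F/F library and 52, 4 and 6 over those of the Mir34a_Mye_KO library. Of 4 follicular helper genes, Tbc1d4 was higher, at 1.54 against 0.762 and at 2.13 against 0.758. Il21, the follicular cytokine, had 17 and 58 UMIs in 7 and 20 members.

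Genes of residence and of chronic stimulation were mixed. Of 14 counted residence and homing genes, Cxcr6 was higher and Itgae lower. Itgae encodes the integrin chain CD103 that binds epithelial cadherin, and its levels were 0.434 against 0.925 and 0.418 against 1.23. Cxcr6, the receptor of Cxcl16, had log2 ratios of 0.60 and 0.87. In the Mir34a_F/F library it was under 1.5-fold in 5 alternatives, at 0.51 after thinning, 0.43 with summed UMIs, 0.56 with the pseudocount, 0.26 against T cells with UMIs of Foxp3, Trdc or Cd8 genes, and 0.38 with both groups limited to cells with a Cd3 UMI. Of 10 checkpoint and chronic stimulation genes, Pdcd1, Tox and Nr4a2 were lower and none was higher. Pdcd1, which encodes PD-1, was at 0.476 against 0.827 and at 0.467 against 0.807. None of the counted genes of the cell cycle (7), immediate early and heat shock (12) and interferon response (6) lists was called in either direction.

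None of the 7 genes of the T-cell receptor complex was called, and the list medians were 0.43 and 0.47 on the log2 scale. Cd3e was at 5.03 against 3.59 in the Mir34a_F/F library and at 3.46 against 2.53 in the Mir34a_Mye_KO library. Of 12 signalling genes, Lat, the adaptor below the receptor, was higher, at 1.81 against 1.15 and at 2.08 against 1.10, but under 1.5-fold in the first library after thinning, at 0.52. The share of cells with a Cd3 UMI, 93.2% and 94.2% in members against 71.6% and 73.4% in the others, moved with this comparison. With both groups limited to cells with a Cd3 UMI, 66 of 6249 counted genes were higher and 104 lower. Lat, Il22, Cxcr6, Slamf1, Slamf6 and Ccr4 were then no longer past 1.5-fold in both libraries, nor were Tox and Ccl4. Against the T cells with UMIs of Foxp3, Trdc or Cd8 genes, the log2 ratios in the Mir34a_Mye_KO library were 0.52 for Slamf1, 0.34 for Ccr4 and -0.28 for Ccl4, and the ratio was 0.42 in the Mir34a_F/F library for Lat, all under 1.5-fold. With the pseudocount Ccr4 was at 0.54 in the Mir34a_Mye_KO library, and with summed UMIs Tox was at -0.52 in the Mir34a_F/F library.

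How the members varied among themselves was described by 5 gates, each met by a UMI of any of its genes. The gates were type 1 (Ifng, Tbx21), type 17 (Il17a, Il17f), type 2 (Il4, Il5, Il13), follicular (Cxcr5, Il21) and cycling (Mki67, Top2a). A gate is a range of measured RNA and not a cell type. Members in no gate numbered 175 (29.7%) in the Mir34a_F/F library and 127 (17.2%) in the Mir34a_Mye_KO library. After thinning, those shares were 55.2% and 55.5%.

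At equal depth the type 17 gate held the most members of the 5 gates. Before thinning it took 278 members of the Mir34a_F/F library, 47.1% (43.0 to 51.2), and 353 of the Mir34a_Mye_KO library, 47.7% (44.1 to 51.4). After thinning the shares were 33.0% (29.3 to 37.0) and 30.4% (27.1 to 33.9). The other T cells gave 14.8% and 11.8% after thinning, and B cells, which do not make these cytokines, gave 1.93% and 1.30%. At full depth, which the comparisons inside and outside the gate below use, B cells gave 6.26% and 11.1%. Epithelial cells had an Il17a UMI in 6.27% and 9.93%. The part of such background UMIs in the gate was not tested. The shares of members were thus well above those of B cells and overlapped between the libraries. The output was uneven: the 59 and 74 members with the most Il17a UMIs held 70.5% and 71.0% of them, and the highest single members had 302 and 371. For Il22 the same measure was 99.5% and 97.4%, but only 62 and 105 members had an Il22 UMI at all. That measure was thus largely set by the number of such members. Icos, for comparison, had 33.2% and 29.9% of its UMIs in as many of its top members. A UMI of Icos was found in 485 and 689 members, and one of Il17a in 255 and 333.

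The type 1 gate was smaller. It took 10.7% and 18.9% of members and, after thinning, 4.43% (2.91 to 6.42) and 4.60% (3.21 to 6.37), against 0.752% and 0.217% of B cells. The other T cells were at 3.56% and 5.99% after thinning. The type 2 gate took 0.170% (0.00431 to 0.945) and 1.35% (0.651 to 2.47) of thinned members. B cells gave 0.215% (0.0260 to 0.774) and 0.542% (0.176 to 1.26), and the other T cells 0.662% and 0.788%. In the Mir34a_F/F library the gate was thus not above the B-cell background. In the Mir34a_Mye_KO library the intervals of members and B cells overlapped. The follicular gate took 1.19% and 0.812%, below the 6.12% and 5.53% of B cells, whose own Cxcr5 meets it. The cycling gate took 34.7% and 55.1% of members before thinning and 12.4% (9.88 to 15.4) and 13.5% (11.1 to 16.2) after it, against 8.59% and 7.59% of B cells. The other T cells were at 12.0% (10.8 to 13.4) and 11.7% (10.3 to 13.2) after thinning, intervals that overlapped those of members. For each of the type 1 and cycling gates the gap between libraries before thinning was not seen at equal depth.

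**Figure D3:**
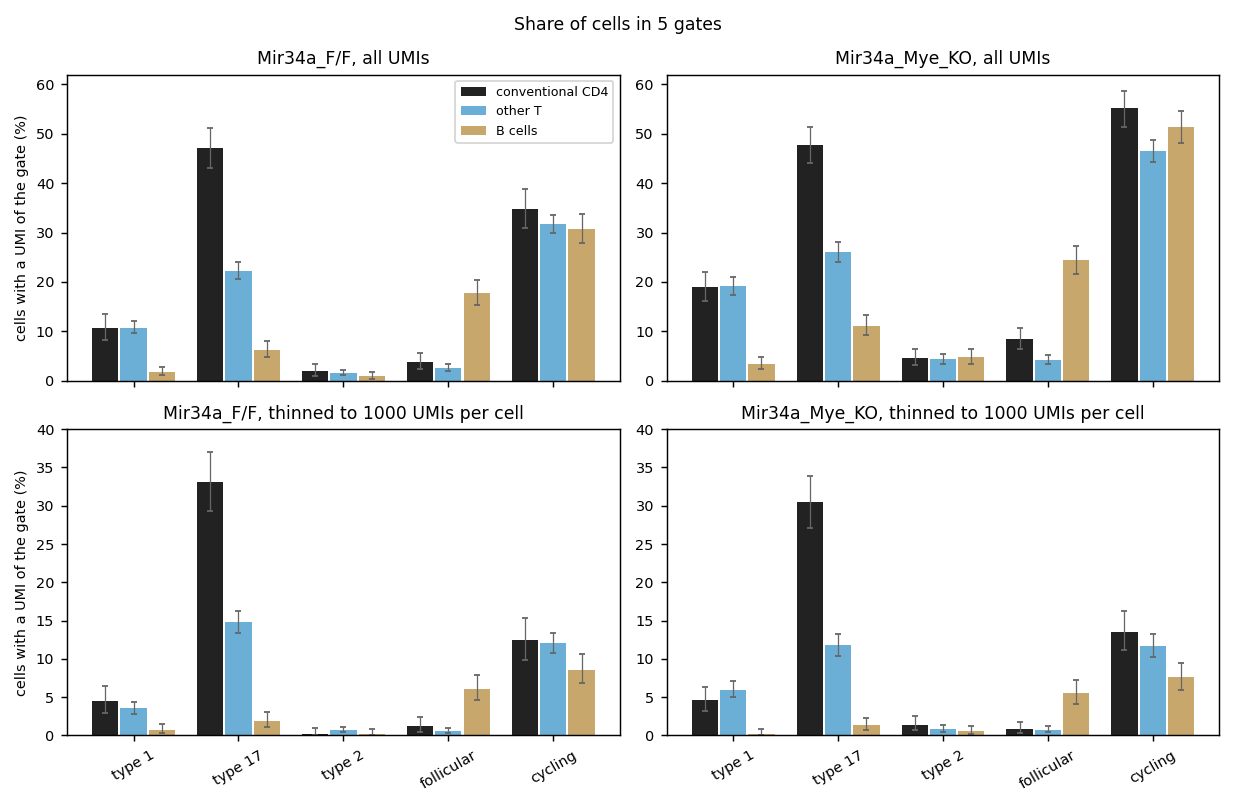
Share of cells (%, axes from 0) with a UMI of each of 5 gates among conventional CD4 T cells, other T cells and B cells, with exact binomial 95% intervals, for each library at full depth (upper row) and after thinning to 1000 UMIs per cell (lower row). At equal depth the type 17 gate holds 33.0% and 30.4% of conventional CD4 cells and 1.93% and 1.30% of B cells.

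Gates overlapped, and members met several at once in 148 cells of the Mir34a_F/F library and 300 of the Mir34a_Mye_KO library. Of the 63 type 1 members of the first library 29 (46.0%) were also in the type 17 gate, and of the 140 of the second 58 (41.4%). Outside the type 1 gate the shares in the type 17 gate were 47.2% and 49.2%. After thinning, 11 of 26 and 12 of 34 type 1 members were in the type 17 gate.

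Members inside the type 17 gate differed from the other members beyond the genes of the gate. Of 6184 genes counted the same way, 166 (2.68%) were higher inside the gate in both libraries and 153 (2.47%) were lower. Of these, 43 and 60 were counted through 1 side alone, among them Tcrg-C1 and Ltb4r1 of the former and Il10, Klrg1, Cd27, Izumo1r and Itgae of the latter. Of the 12 counted type 17 genes other than Il17a and Il17f, 9 were higher (among them Il22, Il23r, Ccr6, Il1r1, Tmem176a, Tmem176b, Ltb4r1 and Furin) and none was lower. Il23r was at 2.48 against 0.599 in the rest in the Mir34a_F/F library, a log2 ratio of 2.05 (1.67 to 2.44), and at 3.80 against 0.976 in the Mir34a_Mye_KO library, a log2 ratio of 1.96 (1.77 to 2.15). Il22 was at 3.61 against 0.549 and at 2.94 against 0.207, log2 ratios of 2.72 (2.38 to 3.07) and 3.83 (3.47 to 4.20). Members inside the gate were deeper, with median UMIs of 4997 against 3626.5 and of 9976 against 8422.

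Of 12 help ligands and costimulatory receptors, Cd40lg, Tnfsf8 and Tnfsf11 were higher inside the gate and Tnfrsf18, Slamf6 and Cd27 were lower, although Slamf6 was higher in the members as a whole. Cd40lg was at 1.65 against 0.804 and at 2.29 against 0.891. Areg, which encodes the epidermal growth factor receptor ligand amphiregulin, was at 18.3 against 5.30 and at 11.6 against 2.89, log2 ratios of 1.79 and 2.00. Of 10 checkpoint genes, Ctla4 and Havcr2 were higher and Pdcd1, Tox, Entpd1 and Izumo1r were lower. Ctla4, an inhibitory receptor, was at 13.3 against 7.26 and at 13.3 against 6.74. The homing genes Cxcr6, Ccr9 and Ccr2 and the residence gene Rgs1 were higher too, 4 of 14 in that list, while Itgae was lower. Tcrg-C1, a gamma chain constant gene, was at 0.484 against 0.203 and at 0.617 against 0.176.

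Some genes of the naive, regulatory and cytotoxic lists were lower inside the gate. Of 10 counted naive and central memory genes 4 were lower inside (Lef1, Tcf7, Klf2 and S1pr1) and none was higher. Tcf7, a transcription factor of naive and memory cells, was at 0.666 against 1.42 and at 1.0 against 1.90. Of 11 regulatory genes Ikzf2, Il10, Klrg1 and Nrp1 were lower and Ctla4 and Capg higher. Ikzf2 was at 1.89 against 6.82 and at 2.70 against 9.99, log2 ratios of -1.85 (-2.07 to -1.64) and -1.89 (-2.01 to -1.76). Of 7 cytotoxic genes Nkg7 and Ccl4 were lower. Ccl5 was at 0.751 against 5.45 and at 0.349 against 3.37. Gata3, the type 2 transcription factor that regulatory cells also use, was at 0.634 against 1.27 and at 0.482 against 1.5.

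**Figure D4:**
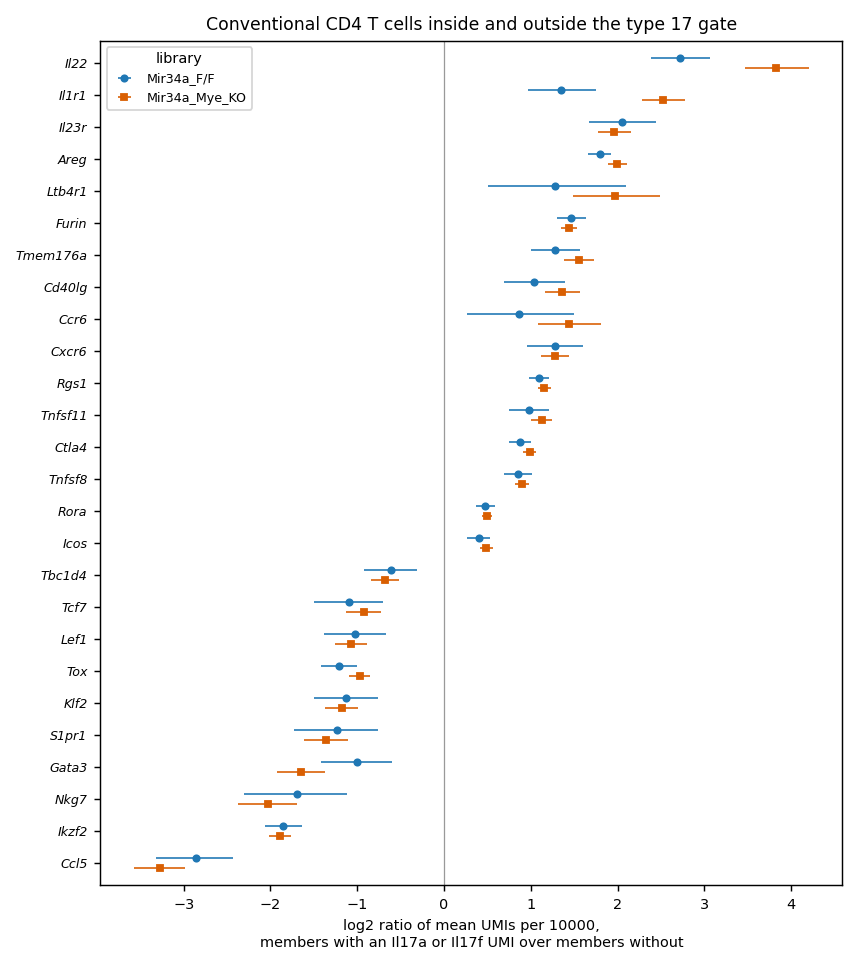
log2 ratio of mean UMIs per 10000 in conventional CD4 T cells with an Il17a or Il17f UMI over those without, for selected genes, with 95% counting intervals, circles for the Mir34a_F/F library and squares for the Mir34a_Mye_KO library. Il22 lies farthest to the right, at 2.72 and 3.83, and Ccl5 farthest to the left, at -2.86 and -3.27.

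Most counted cytotoxic genes were higher inside the type 1 gate. Of 6161 genes counted, 69 (1.12%) were higher and 46 (0.747%) lower in both libraries. Of 7 cytotoxic genes, Gzma, Nkg7, Klrd1, Ccl3 and Ccl4 were higher and none was lower. A single member held 221 of 285 and 248 of 388 Gzma UMIs, and in the Mir34a_Mye_KO library a single member held 326 of 537 Ccl3 UMIs. Gzma, Ccl3, Lag3 and Il12rb2 were counted through the members inside the gate alone. Ccl5 was at 14.3 against 1.92 outside and at 5.94 against 0.996. Nkg7, a granule protein of killer cells, was at 2.35 against 0.223 and at 1.85 against 0.280. Il12rb2, the interleukin-12 receptor chain, was at 0.640 against 0.155 and at 1.24 against 0.503. The inhibitory receptor genes Pdcd1, Lag3 and Havcr2 were higher, 3 of 11 in the checkpoint list. The gate held 63 and 140 cells, which were deeper than the members outside it, with median UMIs of 5224 against 4123 and of 10515.5 against 8895.5.

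Between the libraries, the conventional CD4 cells were compared by the ratio of the Mir34a_Mye_KO level over the Mir34a_F/F level. For many of the named genes the same ratio in the other T cells is given beside it. The make-up of those other T cells differed between the libraries. Cells with none of the 5 selection genes were 1631 of 2498 in the Mir34a_F/F library and 927 of 1909 in the Mir34a_Mye_KO library. The part of that make-up in the ratios of other T cells was not tested. Of 6673 genes counted, 275 (4.12%) were 1.5-fold or more higher in the Mir34a_Mye_KO library and 589 (8.83%) were lower, so 31.8% of the genes past the fold were higher. Of these, 69 and 247 were counted through 1 library alone. This split moved with the processing, which also changed the number of genes counted. With every cell thinned to 1000 UMIs, 372 of 4171 counted genes were higher and 393 lower, 48.6% higher. With immunoglobulin, mitochondrial and ribosomal RNA-like genes left out of the totals, 436 of 7032 were higher and 445 lower, 49.5% higher. The median log2 ratio over the counted genes was -0.03 in conventional CD4 cells and -0.04 in other T cells.

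Many of the largest differences were shared with cells that are not T cells. Igkc was at 11 and 24.9 in conventional CD4 cells of the Mir34a_F/F and the Mir34a_Mye_KO library, a log2 ratio of 1.18, against 1.06 in other T cells and 1.72 in epithelial cells. All 4 counted plasma and B-cell markers were higher in the Mir34a_Mye_KO library (Jchain, Igkc, Igha and Iglc2) and 7 of 8 epithelial markers were lower. Krt8 was at 8.67 and 4.04. Among the 10 lowest genes by rank were Mfge8, Ccdc162, Clu, Gm11808, Snhg9, Gm41609, Nupr1, Kcnk1 and Nlrp4e, whose log2 ratios in members lay between -1.61 and -1.36. Without the 10 highest members of each library, Mfge8, Ccdc162, Kcnk1 and Nlrp4e were at 0.106, 0.0939, 0.103 and 0.0843 in the Mir34a_Mye_KO library. A gene under 0.2 there over all members was counted through the Mir34a_F/F library alone, so lower was the one call open to it. Mfge8, which encodes a secreted protein that binds dying cells, had -1.61 in members, -1.79 in other T cells and -1.65 in B cells. Kcnk1 and Clu were shared less evenly. Kcnk1 had -1.37 in members, -0.51 in other T cells, -0.44 in epithelial cells and 0.03 in macrophages. Clu had -1.55 in members and -0.24 in macrophages, and -0.96 in members without the 10 highest of each library. The 3 counted hemoglobin genes were lower too. Hbb-bs had 2414 UMIs in members of the Mir34a_F/F library and 20 in those of the Mir34a_Mye_KO library, and 1 member held 1050 of the former. The part of such transcripts in the other differences was not tested.

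Some genes of T-cell receptor signalling were higher in the conventional CD4 cells of the Mir34a_Mye_KO library. Of 12 counted, 4 were higher (among them Cd28, Skap1 and Themis) and none was lower, with a list median of 0.44 against 0.31 in the other T cells. Cd28 was under 1.5-fold after thinning, at 0.48. Themis, an adaptor of receptor signalling, was at 2.39 in the Mir34a_F/F library and at 4.35 in the Mir34a_Mye_KO library, a log2 ratio of 0.87 (0.74 to 1.0). In other T cells its ratio was 0.15 (0.04 to 0.26). Within them Trdc-positive cells had 0.310 and 1.02, CD8 cells 3.34 and 4.74 and Foxp3-positive cells 0.846 and 0.882. Those with none of the 5 genes had 1.80 and 1.94. Neutrophils had 0.0540 and 0.0808, a ratio of 0.58, and B cells 0.0740 and 0.0464, a ratio of -0.67, both at a low level. Epithelial cells and macrophages, also at a low level, had Themis ratios of 0.44 and 0.37. Skap1 had 0.72 (0.63 to 0.80) in members and 0.67 (0.61 to 0.72) in other T cells, and neutrophils had 0.236 and 0.334, a ratio of 0.50. Epithelial cells and macrophages had Skap1 ratios of 0.54 and 0.42, and B cells, at 0.277 and 0.203, one of -0.45. Cd28 was at 0.429 and 0.954 in B cells, a ratio of 1.15, against 2.97 and 4.64 in members. Epithelial cells, macrophages and neutrophils had Cd28 ratios of 0.45, 0.32 and 0.02. Cd3e went the other way, with -0.54 in members and -0.51 in other T cells. At levels far under those of members, its ratio was -0.33 in B cells and -0.39 in epithelial cells. In macrophages it was -0.76 and in neutrophils -0.64.

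Of the helper ligands, Tnfsf8 was the one past 1.5-fold. Its level was 5.34 in the Mir34a_F/F library and 8.51 in the Mir34a_Mye_KO library, a log2 ratio of 0.67 (0.58 to 0.76) and of 0.46 after thinning. The other T cells had 2.05 and 2.11, a log2 ratio of 0.04 (-0.06 to 0.13). Each group within them was nevertheless higher in the second library. Foxp3-positive cells had 1.29 and 1.60, Trdc-positive cells 0.694 and 0.926 and CD8 cells 0.384 and 0.961. T cells with none of the 5 genes had 2.64 and 2.91. Levels in other cell types were far lower, at 0.0961 and 0.158 in neutrophils (a ratio of 0.72), 0.134 and 0.177 in macrophages (0.40) and 0.0601 and 0.0739 in epithelial cells (0.30). Cd40lg was at 1.20 and 1.56, a log2 ratio of 0.37 (0.18 to 0.56), against -0.16 (-0.36 to 0.05) in other T cells. Within these, Foxp3-positive cells had 0.184 and 0.258, Trdc-positive cells 0.197 and 0.209 and CD8 cells 0.152 in both. T cells with none of the 5 genes had 0.561 and 0.551. Cd40lg was near 0 in B cells, at 0.00759 and 0.0104 (a ratio of 0.46), and in neutrophils, at 0.0218 and 0.0296 (0.44). Bach2 was the naive and central memory gene that was higher, at 4.70 and 7.55, and Igfbp4 the one that was lower. Bach2 had a log2 ratio of 0.68 in members and 0.43 in other T cells, and Igfbp4 -0.80 and -0.60.

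Of the 14 type 17 genes, the receptor genes Il23r and Il1r1 were higher in the Mir34a_Mye_KO library and none was lower. Il23r was at 1.48 and 2.32, a log2 ratio of 0.65 (0.49 to 0.81), beside 0.61 (0.49 to 0.74) in other T cells. In macrophages it was at 0.0270 and 0.0649, a ratio of 1.26 at levels far under those of the members. Il1r1 was at 1.08 and 1.75, beside 0.75 and 1.16 in other T cells. After thinning both ratios were under 1.5-fold, at 0.42 and 0.52. In members the cytokines stayed within 1.5-fold and did not move one way. Il17a had a log2 ratio of 0.34 (0.28 to 0.40), Il17f of -0.47 (-0.60 to -0.34) and Il22 of -0.40 (-0.55 to -0.25). In other T cells the ratios were -0.20 for Il17a, -1.03 for Il17f and -0.72 for Il22. Areg, which stood with the type 17 gate above, was lower, at 11.4 and 7.03, a log2 ratio of -0.70 (-0.77 to -0.64) against -0.19 in other T cells. Areg was at 1.05 and 0.515 in B cells, a ratio of -1.03, and at 2.98 and 2.24 in epithelial cells, a ratio of -0.41.

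Of 8 type 1 genes, Il12rb2, Stat4 and Il18rap were higher and Tnf and Ccl5 lower. Tnf had a log2 ratio of -0.78 in members and -0.60 in other T cells. After thinning Tnf was at -0.46 in members. Il18rap was at 0.58, just under 1.5-fold, with summed UMIs and with the pseudocount. Stat4 had a log2 ratio of 0.67 in members, 0.59 in other T cells and 0.75 in neutrophils, whose levels were 1.78 and 3.00 beside 6.92 and 11 in members. Epithelial cells had a Stat4 ratio of 0.87, at 0.193 and 0.352, and macrophages one of 0.46, at 0.824 and 1.13. In B cells Stat4 went the other way, at 4.44 and 3.70, a ratio of -0.27. Il18rap had 0.63 in members, 0.70 in other T cells and 0.50 in neutrophils, whose levels, 0.947 and 1.34, were close to the 0.890 and 1.38 of the members. Il12rb2, the interleukin-12 receptor chain, was at 0.207 and 0.642, a log2 ratio of 1.63 (1.21 to 2.08), against 0.77 (0.62 to 0.93) in other T cells. Ccl5 was at 3.24 and 1.93, but without the 10 members of each library with the most of it the log2 ratio was 0.10 in place of -0.75, and after thinning it was -0.52. Of 9 cytotoxic genes, Klrk1, Fasl and Ccl3 were higher and Gzma was lower. Klrk1 was under 1.5-fold with summed UMIs (0.56) and with the pseudocount (0.38). Klrk1 and Fasl were under 0.2 in members of the Mir34a_F/F library and were counted through the other library alone. Their log2 ratios were 0.61 and 0.93 in members and 0.68 and 0.66 in other T cells. Gzma, with a log2 ratio of -1.04, was at -0.16 without the 10 highest members of each library and at -0.33 after thinning. In the Mir34a_Mye_KO library 326 of 537 Ccl3 UMIs were in 1 member, and without the 10 highest members its ratio was 0.82 in place of 1.47. Klrg1 was the regulatory gene that was lower, at 0.357 and 0.148, and was counted through the Mir34a_F/F library alone. The other genes with the largest ratios toward the Mir34a_Mye_KO library were Mef2c, Gm15564, Slc15a2, Sidt1, Kdm4d, 2610037D02Rik, Fam126a and Il1rap, with log2 ratios of 1.12 to 1.63. Kdm4d was at 0.40 after thinning. Without the 10 highest members of each library the ratio of Mef2c was 3.31 in place of 1.63, that of Slc15a2 2.01 in place of 1.34 and that of Kdm4d 1.82 in place of 1.21. With those members left out, the Mir34a_F/F levels of Mef2c, Slc15a2 and Kdm4d were 0.0154, 0.0721 and 0.0598. Those of 2610037D02Rik, Fam126a and Il1rap were 0.0673, 0.0991 and 0.121, and those of Gm15564 and Sidt1 0.635 and 0.303. A gene under 0.2 there over all members was counted through the Mir34a_Mye_KO library alone, so higher was the one call open to it. Gm15564 was higher in B cells, epithelial cells, macrophages and neutrophils as well, with ratios from 1.09 in B cells to 2.03 in macrophages, and Slc15a2 had 1.60 in epithelial cells. Mef2c had 30 UMIs in members of the first library and 334 in those of the second.

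**Figure D5:**
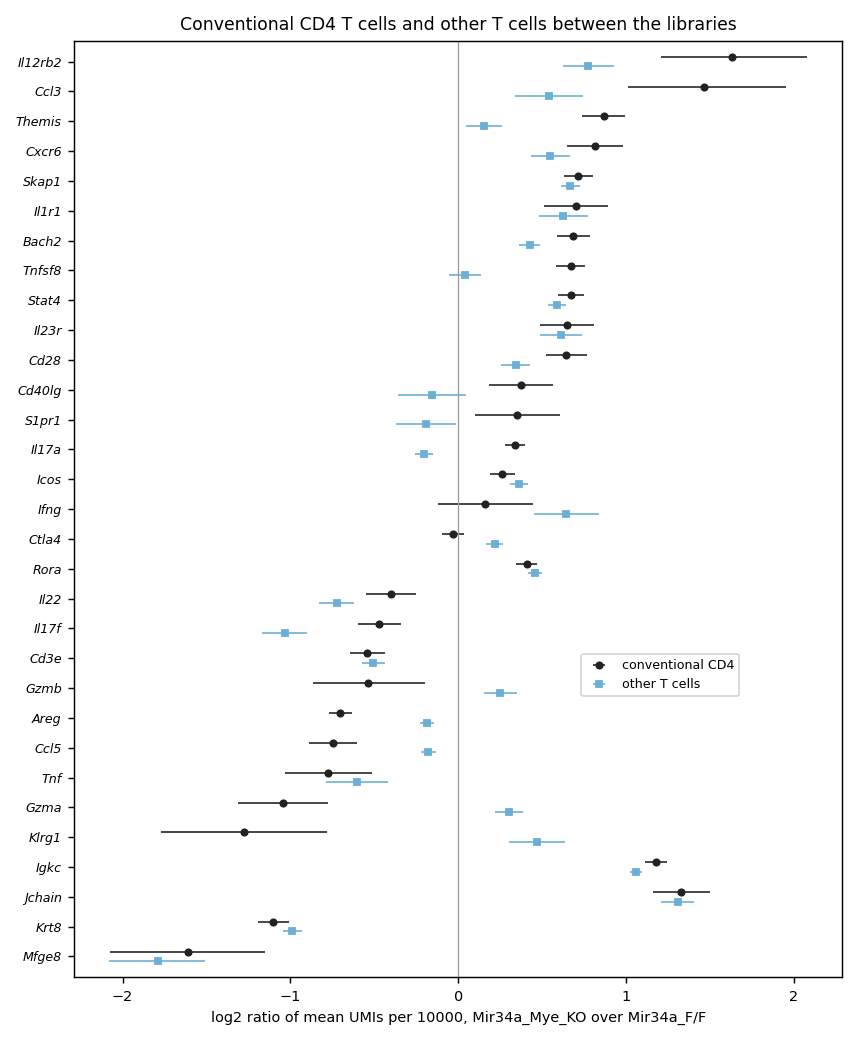
log2 ratio of mean UMIs per 10000 in the Mir34a_Mye_KO library over the Mir34a_F/F library for selected genes, with 95% counting intervals, black circles for conventional CD4 T cells and blue squares for all other T cells. Tnfsf8 is at 0.67 in conventional CD4 cells and at 0.04 in other T cells, while Igkc at 1.18 and 1.06 and Mfge8 at -1.61 and -1.79 lie close together. The other T cells differ in make-up between the libraries, with 1631 of 2498 and 927 of 1909 holding none of the 5 selection genes.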

How the data were processed

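The cells of colitis-associated colon tumors were captured on the 10x Genomics 3' platform as 1 library for each genotype after removal of dead cells. Reads had been processed with Cell Ranger 7.2.0 against mm10, cells with 25% or more mitochondrial RNA and doublets called by Scrublet had been excluded, per the study's methods, and no further doublet caller was run. The values deposited by the authors were on a natural log scale, ln(1 + x) with x in UMIs per 10000 of a cell's total, for 32291 genes in 38883 cells, beside a table of each cell's library and annotated cell type. Undoing the log gave whole UMIs, with a largest deviation of 1.5e-10 from a whole number, and these UMIs were used. All per-sample columns were mapped to a library, and the tables held no comparison columns of the authors.

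Conventional CD4 cells were selected by the 5 genes given above. The members and the 26 gene lists (240 genes, of which 3 had no row) were chosen with earlier results of these data known. Levels were UMIs per 10000 averaged over cells. Genes with a level of at least 0.2 in either group and 50 UMIs over both groups were counted, the 5 selection genes left out, and called at 1.5-fold. The genes named by rank were, for either direction, the 10 most different ones that were also found in 10% of cells, with 409 immunoglobulin, mitochondrial and ribosomal RNA-like genes left out of naming. Intervals for ratios, UMI sums (exact Poisson) and shares (Clopper-Pearson) have a 95% level and cover counting error only. Cells are not replicates and each genotype had 1 library, so no test was made. A few genes and 1 further gate are not reported here. Depth was 893 to 28594 UMIs per conventional CD4 cell in the Mir34a_F/F library and 675 to 34370 in the Mir34a_Mye_KO library. The scripts were tested on simulated data. Alternatives were a thinning of cells to 1000 UMIs, summed UMIs, a pseudocount, other filters on cells and genes, another total and other definitions of the groups. Python 3.11.15, numpy 2.4.6, scipy 1.17.1, pandas 2.3.3 and matplotlib 3.10.9 were used.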

Additional observations from a re-analysis of the deposited data

Results flagged for a closer look

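Several ratios pointed in opposite directions in the groups compared. Each is a log2 ratio of mean UMIs per 10000, and none of these differences was tested, because each genotype had 1 library.

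Between the libraries (Mir34a_Mye_KO over Mir34a_F/F), Il17a had 0.34 in conventional CD4 cells and -0.20 in other T cells, and 0.48 in epithelial cells and 0.33 in macrophages, whose levels were 0.170 and 0.236, and 0.199 and 0.251. In B cells and neutrophils Il17a went the other way, with -0.45 and -0.31. S1pr1, the receptor that lets lymphocytes leave tissue, had 0.35 and -0.19. Among the other T cells, only those with none of the 5 selection genes were lower, with levels of 0.713 and 0.577. Foxp3-positive cells had 0.342 and 0.441, Trdc-positive cells 0.378 and 0.526 and CD8 cells 0.577 and 0.589. Klrg1 had -1.27 in conventional CD4 cells and 0.47 in other T cells, and was nearly absent from B and epithelial cells. The granzyme genes went the same way as Klrg1, with -1.04 and 0.30 for Gzma and -0.54 and 0.25 for Gzmb, although 1 member in each library held most of the Gzma UMIs. Without the 10 highest members of each library the ratios of Gzma and Gzmb were -0.16 and -0.22. Mcpt1, a mast-cell protease, had 0.45 in conventional CD4 cells and -0.26 in other T cells, but 0.0088 without the 10 members of each library with the most of it, and 0.49 in epithelial cells and 0.37 in macrophages. B cells had a Mcpt1 ratio of -0.29 and neutrophils one of 0.19.

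In the ratio of conventional CD4 cells over other T cells, Areg had 0.35 in the Mir34a_F/F library and -0.17 in the Mir34a_Mye_KO library. Havcr2, which encodes the inhibitory receptor TIM-3, had 0.37 and -0.40, and Id2 had 0.13 and -0.27. Mcpt1 had -0.35 and 0.36, and Mcpt2 -0.33 and 0.30. Il1rap had -0.60 and 0.25, and Clu 0.23 and -0.48.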

How the results depend on the processing

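The share of conventional CD4 cells among T cells was 7.52% and 7.99% (Mir34a_F/F, then Mir34a_Mye_KO) with the rule applied after thinning, and 6.93% and 16.6% with 2 or more Cd4 UMIs. Genes higher and lower than in other T cells numbered 45 and 89 of 6380 counted with a pseudocount of 0.1. They were 556 and 1141 of 17662 with no minimum level and 27 and 34 of 1748 with a minimum of 1. After thinning, 208 of 6280 were lower. Between the libraries, 152 and 288 of 6673 counted genes were higher and lower with the pseudocount. They were 1902 and 4488 of 17951 with no minimum and 113 and 129 of 1973 with a minimum of 1. With the reduced total 436 of 7032 were higher. After thinning, the gates held 4.43% and 4.60% (type 1), 33.0% and 30.4% (type 17), 0.170% and 1.35% (type 2), 1.19% and 0.812% (follicular) and 12.4% and 13.5% (cycling) of members. Fewer UMIs per cell and other minimum levels follow from how these alternatives were built. Ccl5 turned from -0.75 to 0.10 between the libraries without the 10 highest members of each, an alternative chosen after seeing the data, as was the comparison of cells with a Cd3 UMI alone. Every other alternative left these counts within 1.5 times of their first value.

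No paired analysis was possible because each genotype had 1 library and no test was made. Membership by 1 Cd4 UMI and no UMI of Foxp3, Trdc, Cd8a or Cd8b1 depends on depth. It was not checked by any measure of protein.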

Other observations

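Mast-cell transcripts were uneven among conventional CD4 cells. The highest single members held 362 of 1129 Mcpt1 UMIs in the Mir34a_F/F library and 668 of 4195 in the Mir34a_Mye_KO library. Amphiregulin RNA was concentrated as well, the 59 and 74 members with the most Areg UMIs holding 79.0% and 82.2% of them, against 40.7% and 40.4% for Ctla4.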
